A study of Mus musculus with 6 samples.

Results

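Transcripts of 9 genes that build the basement membrane were examined in 6 RNA sequencing libraries of mouse cornea. The genes were Lama3, Lamb3, Lama5, Lamb2 and Lamc1, which encode laminin chains, Nid1 and Nid2, which encode the nidogens, and Hspg2 and Agrn, which encode the heparan sulfate proteoglycans perlecan and agrin. They were taken by name from the 35673 gene symbols of the deposited table, and all 9 were found and passed the filter on low counts.

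The libraries were 3 titled Control and 3 titled Cationorm, from corneas of male C57BL/6J mice aged 6 to 8 weeks with no engineered allele in the labels. Cationorm is a cationic oil-in-water emulsion sold as an eye drop. In the model, 0.1% benzalkonium chloride, a detergent-like preservative of eye drops, was combined with contact lens wear for 6 h a day, and drops of 5 µL were given daily for 14 days afterwards. Every library, Control included, carries the tags CLDE (contact lens-related dry eye) and wild-type, while the series' design also names an arm called Control apart from the dry eye animals. The sources therefore do not settle whether the Control corneas had been exposed to benzalkonium chloride and lenses. They also do not say whether each library came from a separate animal or from pooled corneas, so p-values measure only the spread between these libraries, which may be technical.

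Depth ran from 32486043 to 39193311 counts per library. Libraries of 1 group differed by more than sampling noise in every pair (the smallest chi-square of their counts was 30.6 per degree of freedom). Defining markers of corneal epithelium were abundant in every library, with a list of 8 genes (Krt12, Krt5, Krt14, Pax6, Aldh3a1, Tkt, Slurp1 and Upk1b) summing to between 57112 and 63777 CPM (counts scaled to library size, with TMM factors). Transcripts of retina, lens, skeletal muscle, pigmented tissue and vessels were also present in every library, at levels given below where they bear on a result.

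A basement membrane is a thin sheet of matrix under an epithelium and around vessels, nerves and muscle fibres. Laminins, each a trimer of an α, a β and a γ chain, assemble into 1 network and type IV collagens into another, and nidogens and the heparan sulfate proteoglycans link the networks and bind growth factors. In the cornea the epithelial basement membrane anchors the basal cells, which hold a laminin with α3 and β3 chains through the integrin α6β4 of hemidesmosomes, and it separates epithelium from stroma during healing. Corneal endothelium, limbal vessels, nerves and the iris rest on basement membranes of their own, with laminins rich in other chains.

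Upstream sequences are shown for the members whose windows were taken from the RefSeq promoter table (build GRCm38.p6) and that had a single start. Their differences between the groups, given below, ran from among the smallest (Lama5) to among the largest (Hspg2 and Lamb2) of the 9. Windows were taken for 6 of the 9 members, and none was taken for Lama3, Lamc1 and Nid2. Lamb3 and Agrn had more than 1 start and were left out. Each run is the 250 bases before the start, 5′ to 3′ on the strand of the gene, with GC boxes (GGGCGG on either strand) in capitals. The windows are chr2:180225860-180226109 on the minus strand for Lama5, chr9:108479612-108479861 on the plus strand for Lamb2, chr13:13437352-13437601 on the plus strand for Nid1 and chr4:137468553-137468802 on the plus strand for Hspg2.
Lama5: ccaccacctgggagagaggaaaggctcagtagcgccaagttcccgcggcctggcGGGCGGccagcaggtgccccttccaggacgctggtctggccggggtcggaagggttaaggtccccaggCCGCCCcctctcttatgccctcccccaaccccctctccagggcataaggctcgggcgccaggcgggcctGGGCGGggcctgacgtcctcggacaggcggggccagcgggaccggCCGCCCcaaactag
Hspg2: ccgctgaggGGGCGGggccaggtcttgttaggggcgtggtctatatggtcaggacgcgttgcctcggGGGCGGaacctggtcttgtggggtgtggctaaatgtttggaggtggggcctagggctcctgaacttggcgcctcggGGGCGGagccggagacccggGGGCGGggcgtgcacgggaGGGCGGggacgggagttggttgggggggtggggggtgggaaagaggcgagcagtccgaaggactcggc
Lamb2: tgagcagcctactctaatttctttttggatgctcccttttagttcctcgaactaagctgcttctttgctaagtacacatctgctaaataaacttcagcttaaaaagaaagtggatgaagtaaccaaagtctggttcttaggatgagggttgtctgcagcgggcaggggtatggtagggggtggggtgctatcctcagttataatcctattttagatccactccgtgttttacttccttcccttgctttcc
Nid1: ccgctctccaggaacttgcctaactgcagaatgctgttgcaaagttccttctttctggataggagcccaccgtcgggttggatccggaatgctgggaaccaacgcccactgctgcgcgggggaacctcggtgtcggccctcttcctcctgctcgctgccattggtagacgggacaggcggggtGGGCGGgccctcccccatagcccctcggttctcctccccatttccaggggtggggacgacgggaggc

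The Hspg2 window held 5 GC boxes, that of Lama5 held 4, that of Nid1 held 1 and that of Lamb2 held 0. Of 32841 windows of the same length in the table, 32.7% held at least 1. A CCAAT box (CCAAT on either strand), present in 33.9% of all windows, was found once, in the Nid1 window, and it did not overlap the GC box there. The letters TATAAA (12.4% of windows) and TGANTCA, the AP-1 motif (6.8%), each searched on both strands, were not in these 4 windows. Base composition differed as well, with 70.0% G and C for Hspg2, 72.4% for Lama5, 64.4% for Nid1 and 43.6% for Lamb2, against a median of 52.4% over all windows. A match of letters describes the window and is not a binding site.

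Per kilobase of its longest coding transcript, agrin was the most abundant of the 9 transcripts in every library, at 28.7 ± 2.81 CPM per kilobase in Control and 30.0 ± 3.04 in Cationorm (mean ± SD, n = 3 libraries each, as for all values given as ± SD). Lama5, Lamb2, Lama3 and Lamb3 followed at similar levels, with means over the 6 libraries of 16.9, 16.5, 16.2 and 15.1 CPM per kilobase, and their ranges overlapped from each to the next. Nid1 came next at 11.6, below Lamb3 in 6 of 6 libraries with no overlap of ranges. Lamc1 was at 6.84 and Hspg2 at 5.69, with overlapping ranges although Lamc1 was the higher in 6 of 6 libraries. Nid2 was the lowest at 2.66, with a range of 1.27 to 3.72 that lay below that of Hspg2. With the length of all annotated exons in place of the longest transcript, the order was the same. The plot of level per length shows these steps.

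**Figure D1:**
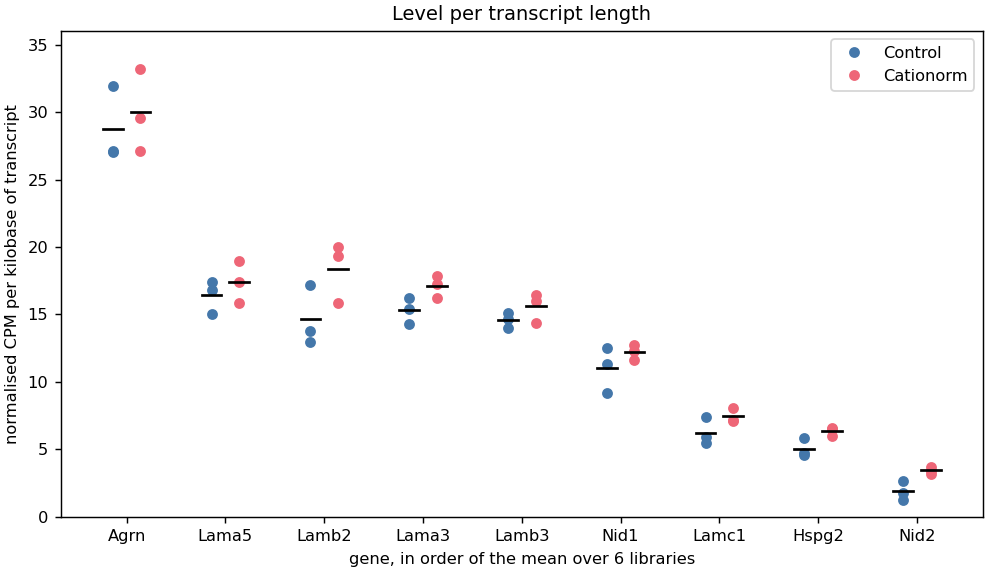
Normalised CPM per kilobase of transcript for the 9 genes, ordered by the mean over 6 libraries; each point is 1 library and each short bar a group mean. Agrn stood highest at 27.0 to 33.2 CPM per kilobase, the chains Lama5, Lamb2, Lama3 and Lamb3 overlapped, and Nid2 was lowest.

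The comparison of Cationorm with Control asked how transcript levels differed between these corneas. All 9 genes had a higher mean in Cationorm, by small amounts for most, and none passed the test. The largest differences were in Nid2 (1.83-fold), Hspg2 (1.26-fold) and Lamb2 (1.26-fold), and the smallest was in Agrn (1.04-fold). The members' median log2 fold change was 0.16, against 0.01 over all genes tested, of which 51.2% were above 0.

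By the quasi-likelihood test of edgeR, 0 of the 9 members passed at an adjusted p of 0.05, and neither did any other gene (0% of 18804). An unadjusted p under 0.05 was found for 3 members (Nid2, Hspg2 and Lamb2), all with a higher mean in Cationorm, against 5.16% of all genes higher and 8.73% in either direction (1641 genes). The libraries of the groups did not overlap in 2 members, Nid2 and Hspg2, against 14.8% of all genes (8.73% of all genes when higher in Cationorm). limma-voom called 0 genes (0%) and DESeq2 called 55 of the 14426 genes it adjusted (0.381%), with no member among them. An adjusted p of 0.550 was the smallest in the edgeR fit and was shared by 3244 genes, so that value alone does not rank the members.

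**Figure D2:**
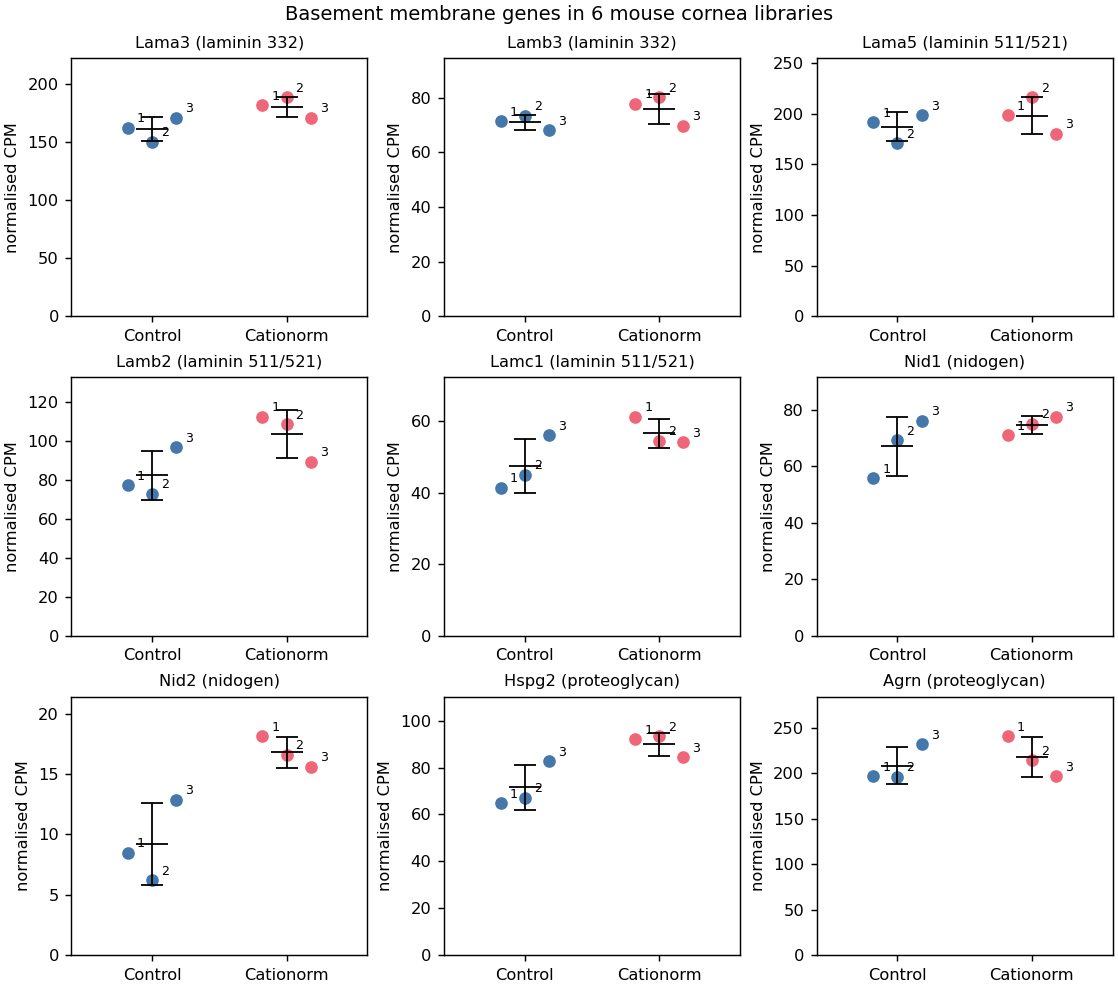
Normalised CPM of the 9 genes in each library, numbered by replicate; the horizontal bar and whiskers are the group mean and SD (n = 3). The groups are apart only for Nid2 and Hspg2 among these 9, and Control 3 is the highest Control library for 8 of the 9 genes.

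The α3 and β3 laminin chains belong to the laminin that anchors basal epithelial cells. Lama3, which encodes the α3 chain that integrins bind, measured 162, 150 and 171 CPM across Control 1 to 3, against 182, 188 and 171 CPM across Cationorm 1 to 3. Cationorm 1 and 2 were above every Control library, whereas Cationorm 3 matched Control 3. The log2 fold change was 0.16 ± 0.07 (SE; edgeR adjusted p = 0.550). Lamb3, which encodes the β3 chain, measured 71.4, 73.5 and 68.3 CPM across Control, against 77.9, 80.2 and 69.9 CPM across Cationorm. Its groups overlapped through Cationorm 3, and its log2 fold change was 0.10 ± 0.07 (edgeR adjusted p = 0.631). Lamb3 had the smallest spread within Control of the 9 genes, a coefficient of variation of 3.68%. The 95% intervals of the log2 fold changes of Lama3 (-0.01 to 0.33) and Lamb3 (-0.07 to 0.27) both held 0.

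Lama5, Lamb2 and Lamc1 encode α5, β2 and γ1, chains of laminins found under many adult epithelia and in vessel walls. Lama5 measured 192, 171 and 198 CPM across Control 1 to 3, against 198, 216 and 180 CPM across Cationorm 1 to 3, with interleaved groups and a log2 fold change of 0.08 ± 0.09 (edgeR adjusted p = 0.738). Lamb2, whose β2 chain is also prominent at the neuromuscular junction, measured 77.3, 73.0 and 96.8 CPM across Control, against 112, 109 and 89.3 CPM across Cationorm. Its groups overlapped because Control 3 was above Cationorm 3. The log2 fold change was 0.33 ± 0.13, with a 95% interval of 0.02 to 0.64 (edgeR adjusted p = 0.550). Lamc1, whose γ1 chain is shared by most laminins, measured 41.4, 45.1 and 56.1 CPM across Control, against 61.3, 54.6 and 54.1 CPM across Cationorm. Control 3 lay within the Cationorm range, and the log2 fold change was 0.25 ± 0.12 (edgeR adjusted p = 0.550).

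The nidogens are sulfated glycoproteins that bridge laminin γ1 and type IV collagen. Nid1, the more abundant, measured 55.7, 69.2 and 76.1 CPM across Control 1 to 3, against 71.0, 75.0 and 77.4 CPM across Cationorm 1 to 3. Only Control 1 and 2 lay below the Cationorm range, and the log2 fold change was 0.15 ± 0.11 (edgeR adjusted p = 0.631). Nid2 measured 8.48, 6.20 and 12.8 CPM across Control, against 18.1, 16.6 and 15.6 CPM across Cationorm. Every Cationorm library was above every Control library. The Control libraries spread widely, with a coefficient of variation of 36.8% against 7.54% in Cationorm. The group means were 9.18 ± 3.38 and 16.8 ± 1.26 CPM (SD, n = 3 each).

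The log2 fold change of Nid2 was 0.87 ± 0.25 (SE), with a 95% interval of 0.28 to 1.46, and it did not pass (edgeR adjusted p = 0.550, unadjusted p = 0.00970). DESeq2 gave it an adjusted p of 0.0938, the smallest for any of the 9 genes under the alternatives run, which ranged up to 0.862 for Nid2. Its log2 fold change ran from 0.64 without Control 2 to 1.19 without Control 3. The Nid2 counts behind these levels ran from 215 in Control 2 (exact Poisson 95% interval 187 to 246, counting error only) to 625 in Cationorm 2 (577 to 676). The counting intervals of Control 1, 2 and 3 did not overlap each other, before or after scaling to library size, so the spread within Control was wider than counting error. In the basic GENCODE annotation of GRCm38, 8.96% of the Nid2 exon bases overlap Rtraf on the opposite strand, and without a known strand setting those reads cannot be told apart. Rtraf itself was more abundant than Nid2, with means of 74.6 CPM in Control and 67.5 CPM in Cationorm. Its log2 fold change was -0.14 ± 0.08 (edgeR adjusted p = 0.573), in the other direction. The part of Rtraf reads in the Nid2 counts was not tested. Overlap with antisense genes was at most 2.35% of exon bases for Nid1 and Lama3, and none was found for the other 6 members.

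Perlecan and agrin are large core proteins that carry heparan sulfate chains. Hspg2 (perlecan) measured 64.9, 67.1 and 82.7 CPM across Control 1 to 3, against 92.2, 93.4 and 84.4 CPM across Cationorm 1 to 3. The groups did not overlap, but Control 3 and Cationorm 3 were close. The log2 fold change was 0.33 ± 0.10, with a 95% interval of 0.09 to 0.58 (edgeR adjusted p = 0.550, unadjusted p = 0.0147). Agrn (agrin), which also organises the neuromuscular synapse, measured 197, 196 and 232 CPM across Control, against 241, 215 and 197 CPM across Cationorm. Its groups interleaved, with a log2 fold change of 0.06 ± 0.10 and a 95% interval of -0.17 to 0.30 (edgeR adjusted p = 0.836). Without Cationorm 1 the sign of the Agrn value turned, to -0.02.

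**Figure D3:**
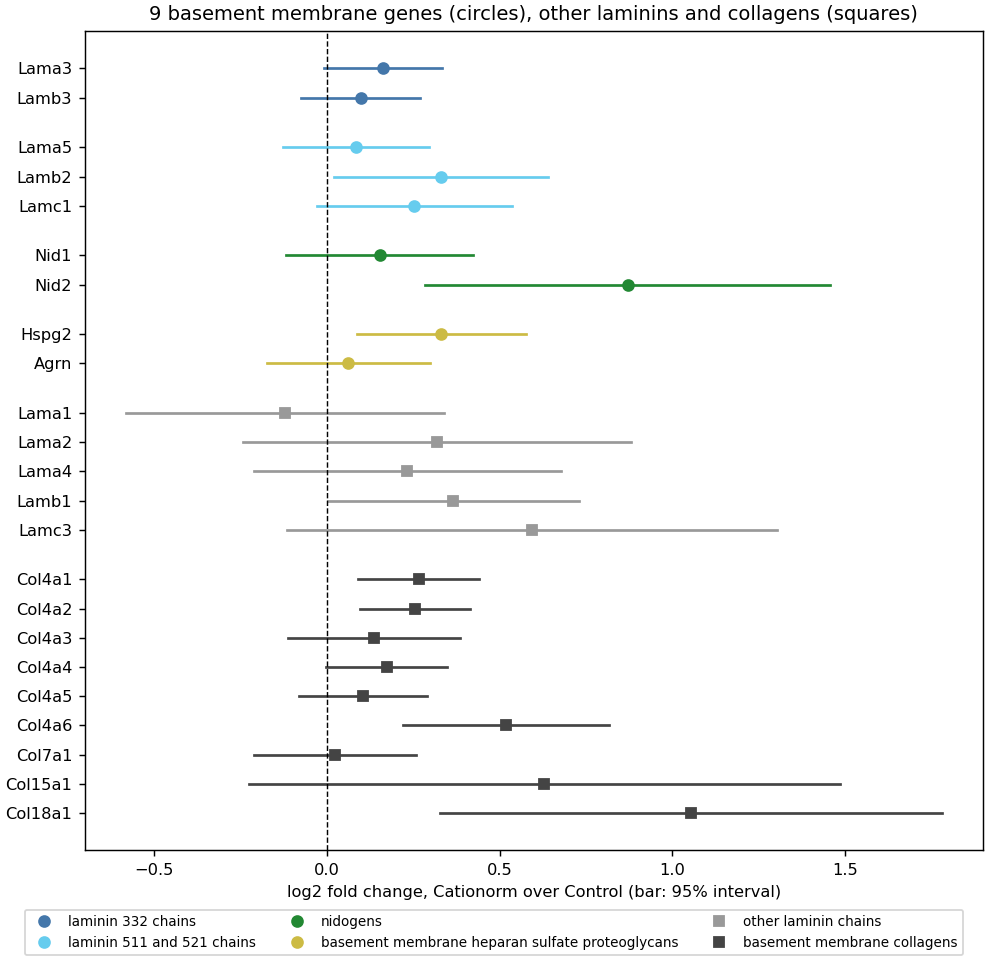
log2 fold change of Cationorm over Control with its 95% interval for the 9 genes (circles) and for 5 other laminin chains and 9 basement membrane collagens (squares). The values of the 9 genes lie between 0.06 (Agrn) and 0.87 (Nid2), and Lama1 is the 1 gene plotted below 0.

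Ratios of 2 genes within the same library do not depend on the scaling to library size. The ratio of Nid2 to Nid1, per kilobase, was 0.190, 0.112 and 0.211 in Control 1 to 3 and 0.319, 0.276 and 0.252 in Cationorm 1 to 3. All Cationorm ratios were above all Control ratios. The ratio of Hspg2 to Agrn was 0.168, 0.175 and 0.182 in Control and 0.196, 0.222 and 0.219 in Cationorm, again with no overlap. In an exact two-sided permutation test each gave p = 0.100, the smallest that 3 against 3 libraries can give. The adjusted p was 0.300 over the 6 ratios computed. The 6 ratios were chosen after the values were seen, and neither p accounts for that choice. The log2 difference of the Nid2 to Nid1 ratio was 0.77, and 0.49 without Control 2.

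The other 4 ratios overlapped between the groups (exact permutation p of 0.200 to 0.700). Lama3 to Lamb3, partners in 1 trimer, stood at 1.05 ± 0.11 in Control and 1.10 ± 0.03 in Cationorm. Lamb2 to Lamb1, alternative β chains, stood at 0.685 ± 0.073 and 0.657 ± 0.054. Lama5 to Lama3, the α chains of the main epithelial laminins, stood at 1.07 ± 0.02 and 1.02 ± 0.04. Lama5 to Lamc1 stood at 2.67 ± 0.38 and 2.35 ± 0.26 (SD, n = 3 each).

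**Figure D4:**
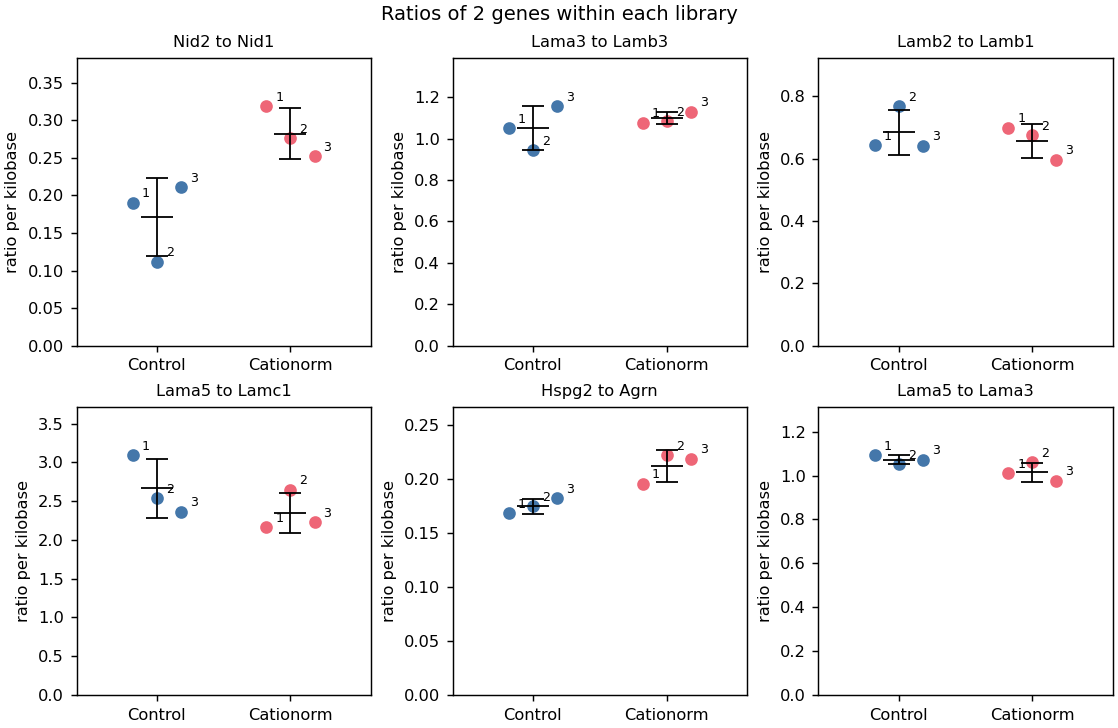
Ratio of 2 genes per kilobase within each library, numbered by replicate, with the group mean and SD (n = 3). Nid2 to Nid1 and Hspg2 to Agrn do not overlap between the groups, and the other 4 ratios do.

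Other genes of the basement membrane were followed through fixed lists, and 0 members of any of these lists passed the edgeR test. Of 5 other laminin chains, 4 had a higher mean in Cationorm (list median 0.32 on the log2 scale). Lamb1 (β1 chain) had a log2 fold change of 0.36 ± 0.15, Lamc3 (γ3 chain) 0.59 ± 0.30 and Lama2 (α2 chain) 0.32 ± 0.24, and Lama1 (α1 chain) had -0.12 ± 0.20. Lamb1 measured 124, 97.5 and 155 CPM across Control 1 to 3, against 165, 165 and 154 CPM across Cationorm 1 to 3, so Control 3 reached the Cationorm range here too.

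All 9 basement membrane collagens had a higher mean in Cationorm (list median 0.26 on the log2 scale), and 5 of them did not overlap between the groups, all higher in Cationorm, against 8.73% of all genes in that direction and 14.8% in either. Col4a1 and Col4a2, which encode the chains of the most widespread type IV collagen, had log2 fold changes of 0.27 ± 0.07 and 0.26 ± 0.07. Col4a1 measured 69.5, 74.7 and 64.4 CPM across Control 1 to 3, against 82.1, 87.7 and 81.1 CPM across Cationorm 1 to 3. Unlike most of the 9 laminin, nidogen and proteoglycan genes, Col4a1 and Col4a2 had their lowest Control value in Control 3. Col4a6, a chain of the type IV network of some epithelia, had 0.52 ± 0.13, and Col18a1, the collagen that yields endostatin, had 1.05 ± 0.31, with Control 3 at 61.1 CPM against 26.1 and 31.0 in Control 1 and 2. Col7a1, the collagen of anchoring fibrils, had 0.02 ± 0.10. The adjusted p was 0.550 for each of these except Col7a1 (0.942, edgeR).

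Of 13 receptors for laminin and the basement membrane, 11 had a higher mean in Cationorm (median log2 fold change 0.13), among them the integrin subunits Itgb4 (0.18 ± 0.06), Itga3 (0.22 ± 0.08) and Itga6 (0.16 ± 0.07). Itgb4, the β4 subunit of hemidesmosomes, measured 534, 562 and 545 CPM across Control 1 to 3, against 645, 604 and 616 CPM across Cationorm 1 to 3. Its groups did not overlap and Control 3 was not the highest Control library. Of 21 assembly and associated proteins, 17 had a higher mean (median 0.18). The first of these by p were fibulin 1 (Fbln1, 0.68 ± 0.14), which binds laminin and nidogen, peroxidasin (Pxdn, 0.54 ± 0.12), which crosslinks type IV collagen, and Frem1 (0.52 ± 0.19), a protein of the epithelial basement membrane. Of 17 genes of heparan sulfate synthesis and remodelling, 12 had a higher mean, and the median of 0.05 was the smallest of these lists. That list includes the polymerase subunit Ext2 (0.14 ± 0.06), heparanase (Hpse, 0.32 ± 0.13) and the sulfotransferase Ndst1 (0.15 ± 0.08).

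Control 3 was the highest Control library for 8 of the 9 members, all but Lamb3, and Cationorm 3 was the lowest Cationorm library for 8 of the 9, all but Nid1. Without Control 3 the median log2 fold change of the members was 0.25 and without Cationorm 2 it was 0.13. Members that separated Control 3 from Control 1 and 2 most were Nid2, Lamb2, Lamc1 and Hspg2, as the map of deviations by library shows. Across the 6 libraries the members tracked each other to unequal degrees, with Pearson's r of log2 CPM from 0.95 (Lamb2 with Hspg2; Spearman's rho 0.83) down to 0.06 (Lamb3 with Nid1; rho -0.37). The 6 points include both groups, so these values describe the libraries.

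Marker lists of other tissues moved across the libraries in part as these genes did. A list of 10 melanocyte, iris and ciliary body genes summed to 502, 438 and 1072 CPM across Control 1 to 3, against 1508, 1224 and 1194 CPM across Cationorm 1 to 3. Its groups did not overlap, and all 10 genes had a higher mean in Cationorm. A list of 9 smooth muscle and pericyte genes summed to 455, 396 and 593 CPM across Control, against 716, 698 and 594 CPM across Cationorm, with 9 of 9 genes higher in mean. Control 3 and Cationorm 3 nearly met in this sum, of which Notch3 was the largest part (267 CPM in Control 3 and 248 CPM in Cationorm 3). Single genes went both ways. Acta2 (81.6 and 107 CPM), Myl9 (39.9 and 56.0 CPM), Cnn1, Tagln and Myh11 were higher in Cationorm 3. Notch3, Des (55.8 and 38.5 CPM), Rgs5 and Pdgfrb were higher in Control 3.

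The list of 13 vascular and lymphatic endothelial genes, cells that rest on laminin, nidogen and perlecan, ranged from 122 to 204 CPM in Control and from 177 to 197 CPM in Cationorm, with its highest value in Control 3 and 11 of 13 genes higher in mean. The 7 Schwann cell genes ranged from 231 to 274 and from 265 to 299 CPM, with 7 of 7 higher in mean. Mbp made up most of this sum in every library (175 to 204 CPM). Its log2 fold change of 0.12 was the smallest of the list, whose median was 0.53. Markers of corneal epithelium ranged from 57112 to 61151 and from 59013 to 63777 CPM, with 3 of 8 higher in mean, and keratocyte markers from 2655 to 2716 and from 2180.5 to 3374 CPM, with 3 of 8. Corneal endothelial markers ranged from 782 to 891 and from 838 to 973 CPM, with 4 of 5 higher. No gene of these 7 lists was at 0 in all libraries. Their part in the values of the 9 genes was not tested, and in bulk tissue a change in the share of cells of a type and a change in RNA per cell cannot be told apart.

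Skeletal muscle markers summed to 486, 82.6 and 916 CPM across Control 1 to 3, against 57.6, 1520 and 571 CPM across Cationorm 1 to 3, and all 8 tested genes had a higher mean in Cationorm (median log2 fold change 0.42). Among the Control libraries the muscle sum was highest in Control 3 and lowest in Control 2. That order was also seen for Lama3, Lama5, Lamb2, Nid2 and Agrn, but not for Lamb3, Lamc1, Nid1 and Hspg2. For Agrn, Control 1 and 2 were nearly equal (197 and 196 CPM). The vascular, smooth muscle, melanocyte and Schwann cell sums had the same order, so it was not particular to muscle. Over all 6 libraries the muscle sum was lowest in Cationorm 1, where Nid2, Lamb2, Lamc1 and Agrn were highest. It was highest in Cationorm 2, where Lama3, Lamb3, Lama5 and Hspg2 were highest. Lens markers ranged from 71.3 to 2830 CPM in Control and from 1569 to 5533 CPM in Cationorm, with 7 of 7 tested genes higher in mean (median 0.99). The lowest lens sum was in Control 1, where Nid1, Lamc1 and Hspg2 were also lowest. Control 2 had the highest lens sum of the Control libraries, and Lama3, Lama5, Lamb2, Nid2 and Agrn were lowest there. Retina markers ranged from 4885 to 7293 and from 1877 to 6002 CPM, with 0 of 10 higher in mean, and conjunctival markers from 2779 to 3914 and from 3064 to 3288 CPM, with 1 of 5 tested genes higher. The part of these lists in the values of the 9 genes was not tested either.

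**Figure D5:**
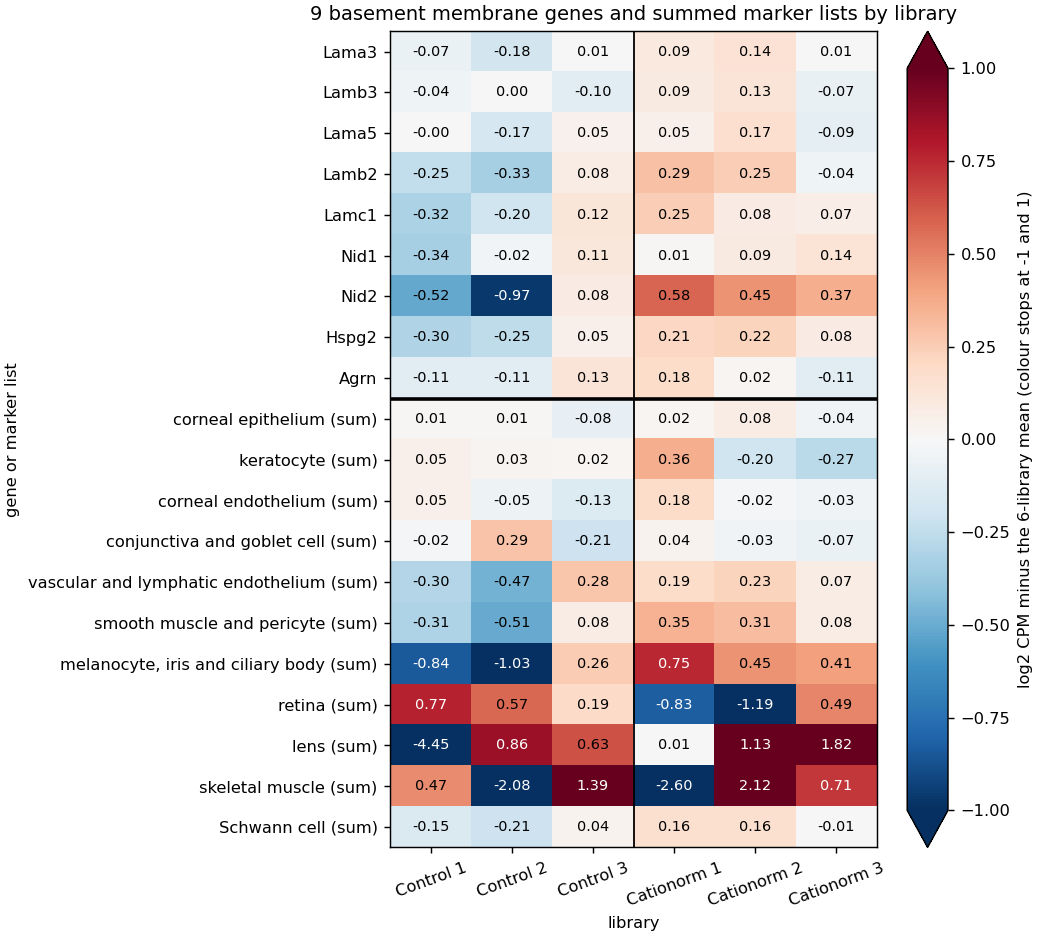
log2 CPM of each of the 9 genes, and of the summed CPM of each marker list, as the deviation from its mean over the 6 libraries; the printed numbers are the values and the colour stops at -1 and 1. Nid2 runs from -0.97 in Control 2 to 0.58 in Cationorm 1, and the melanocyte, iris and ciliary body sum from -1.03 to 0.75 in the same libraries.

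The genes whose levels followed each member most closely were taken from 11651 genes with a mean of at least 5 CPM, by Pearson's r of log2 CPM over the 6 libraries, and r is given as a description. For Lamb2 they were Mmp15, a membrane metalloprotease (r = 0.999), and Tek, the angiopoietin receptor of endothelium (r = 0.998), and for Hspg2 they were Rnpepl1, an aminopeptidase relative, and Pkdcc, a secreted kinase (r = 0.999 for each). For Nid2 they were Zfpm1, a cofactor of GATA factors, and Rps26-ps1, a ribosomal protein pseudogene whose reads may belong to its parent gene (r = 0.995 for each). Lama3 was followed by Sema3g, a semaphorin (0.997), and Mbp, a myelin protein (0.996), and Lamb3 by Mcm3, a replication helicase subunit, and Paics, a purine synthesis enzyme (0.995 for each). Lama5 was followed by Sh3tc2 (0.997) and Kdm3a, a histone demethylase (0.996), Lamc1 by Tsr1 (0.997) and Tnfrsf19 (0.995), Nid1 by Fbxw4 (0.989) and Ceacam19 (0.975), and Agrn by Dennd2c (0.990) and Mtmr12 (0.985). With 6 libraries such values are common: from 69 genes for Nid1 to 971 genes for Lamb2 had an r of at least 0.9.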

How the data were processed

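The deposited table holds raw whole-number counts per gene symbol, with a column for every library, as the authors made it and per the file headers. DESeq2, GRCm39 and mm39 appear in the submitters' processing notes, without a role. No source used here gives the aligner, counter, annotation release or strand setting. Counts were filtered with filterByExpr, scaled by TMM and tested by group alone over all 18804 kept genes (edgeR 4.0.16, quasi-likelihood, R 4.3.3). P-values were adjusted by Benjamini-Hochberg, with a threshold of 0.05. Alternatives used other scalings and filters, DESeq2 1.42.0, limma-voom (limma 3.58.1), a replicate block and leaving out each library. The procedure was tested on simulated data.

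All 9 members were named. Of each other list of basement membrane, receptor and heparan sulfate genes, the 3 genes with the smallest p were named. A few further chains and collagens were added after their values were seen. The marker lists were given mainly as sums and counts. The members and lists were chosen with earlier results of these data known, and the 6 within-library ratios after the values were seen. Transcript lengths came from GENCODE M21 (GRCm38), older than the GRCm39 of the processing notes, and served only as lengths and for overlapping genes. Some genes of the fixed lists are not reported here and were left out of the list counts and sums.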

Additional observations from a re-analysis of the deposited data

How the results depend on the processing

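Across 13 alternatives, 116 of 117 values of the 9 genes kept their direction and none passed (edgeR, DESeq2 or limma-voom adjusted p of at least 0.0938). The exception was Agrn without Cationorm 1, at -0.0172. The median log2 fold change of the members ran from 0.134 to 0.255 with 1 library left out and from 0.154 to 0.168 otherwise, and 8 or 9 of the 9 were higher in every setting. Over all genes, DESeq2 called 55 where edgeR called 0, and with 1 library left out edgeR called from 0 to 350 genes: 350 without Cationorm 3, 8 without Control 3 and 1 without Control 2. The causes were not tested. Single-gene values without 1 library moved by over 1.5 times for Lama3 (0.10 without Control 2). The same held for Lamb3 (0.04 without Cationorm 2, 0.15 without Cationorm 3) and Lamc1 (0.16 without Control 1, 0.39 without Control 3). Nid1 moved to 0.04 without Control 1 and 0.25 without Control 3. Lama5 moved to 0.00231 without Cationorm 2, 0.00499 without Control 2, 0.13 without Control 3 and 0.15 without Cationorm 3. Besides its turned sign, Agrn moved to 0.00134 without Control 2, 0.02 without Control 1, 0.13 without Cationorm 3 and 0.15 without Control 3. With the replicate block 0 genes were called and the median was 0.163, with 0.93 for Nid2. The replicate numbers did not pair the libraries: deviations of same-numbered libraries had r of -0.18, -0.31 and -0.16, and no library correlated best with that of its own number. The within-library ratios with each library left out in turn, added after seeing the data, kept their direction for Nid2 to Nid1 (log2 difference from 0.489 without Control 2 to 0.946 without Control 3), Hspg2 to Agrn (0.242 to 0.335), Lama5 to Lamc1 (-0.0665 without Control 1 to -0.269 without Cationorm 2, against -0.179 with all) and Lama5 to Lama3 (-0.0506 without Cationorm 3 to -0.112 without Cationorm 2). Lama3 to Lamb3 turned to -0.0066 without Control 2 (up to 0.139 without Control 3), and Lamb2 to Lamb1 turned to 0.0296 without Control 2 and 0.0118 without Cationorm 3 (down to -0.103 without Cationorm 1), as log2 differences.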
